A study of Homo sapiens with 9 samples.

Results

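The genes described here encode the enzymes that write and erase methyl and acetyl marks on histones and methyl marks on DNA. They were taken from the array by gene symbol, as the numbered families of lysine demethylases (KDM), lysine methyltransferases (KMT, SETD and EZH), lysine acetyltransferases (KAT), zinc-dependent histone deacetylases (HDAC), sirtuins (SIRT), arginine methyltransferases (PRMT), DNA methyltransferases (DNMT) and TET dioxygenases. The pattern took 72 of the 14884 genes named on the array. It reads symbols and not values, but it was chosen with earlier results of these data known. A gene with more than 1 probe set was read from its brightest (HDAC2, HDAC4 and TET1 had 2 each, none of them called), and 1 gene of the pattern is not described here. One member, KDM5D, is counted but given no values.

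The cells were MDA-MB-231, an established human line derived from a triple-negative breast tumour and grown under standard conditions. The samples were 3 arrays of cells given 500 nM JQ1 for 12 h, 3 arrays of cells given 500 nM JQ1 for 24 h, and 3 control arrays of cells with no agent, labelled 0 h. JQ1 competes with acetylated lysine for the bromodomains of the BET proteins, releasing them from histones. No vehicle is named, nor is there a control at 12 h or 24 h, so time in culture and exposure to a solvent cannot be told apart from JQ1, and nothing says that the arrays of a group came from separate cultures, so p-values measure the spread between these arrays.

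Histone acetyltransferases add acetyl groups to lysines and deacetylases remove them, the HDACs with zinc and the sirtuins with NAD. BET proteins read that acetylation, whereas methylation of lysine or arginine is laid down by SET-domain enzymes and PRMTs and removed from lysine by the LSD and Jumonji demethylases. DNMTs methylate cytosine in DNA and TET enzymes oxidise the methyl group. Many of these proteins are drug targets in breast cancer, EZH2, LSD1, PRMT5 and the HDACs among them.

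Values are log2 array signals, so a difference of 1 is a doubling. They are relative to the other genes on the same array, and a change in total RNA per cell would not be seen. In such bulk samples fewer cells expressing a gene and less of its RNA per cell cannot be told apart. The labelled line was checked against its markers. VIM, MSN, AXL and EGFR, genes of mesenchymal and basal-like breast cells, lay between 10.23 and 12.36 log2 on the 9 arrays, and CD44 between 7.15 and 8.11, which makes 5 of 6 listed markers measured. ESR1, PGR and FOXA1, which mark luminal cells, lay between 3.93 and 5.17, against array medians of 4.92 to 4.96, while EPCAM, GATA3 and KRT8 averaged 6.26, 6.68 and 6.94. CD14, LYZ and CSF1R, markers of leukocytes, averaged 4.31, 3.84 and 5.62. Of the 72 enzyme genes, 66 had a mean of at least 5 log2.

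Control 3 stood apart from the other controls. It lay more than 0.5 log2 from the mean of controls 1 and 2 in 20 of the 72 enzyme genes (27.8%), against 15.1% of all genes. Controls 1 and 2 differed by more than 0.5 in 0 of the 72, against 120 of all 14884 genes. The median deviation of 23 DNA replication and mitosis genes from their 9-array means was 0.82 in control 3, against -0.17 in control 1 and -0.22 in control 2. Calls of enzyme genes that changed without control 3 are therefore given with and without it. Other differences are mostly given with all arrays alone. Control 3 was singled out by its values, and leaving it out leaves controls 1 and 2 alone. Calls and p-values without it are therefore not independent support.

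Under JQ1 the enzyme genes moved in both directions and by small steps. A gene is called where limma's Benjamini-Hochberg adjusted p over all 14884 genes was below 0.05. At 12 h, 11 of the 72 were called (15.3%), 5 higher and 6 lower, against 7.93% of all genes, 3.54% higher and 4.39% lower. At 24 h, 17 were called (23.6%), 8 higher and 9 lower, against 11.5% of all genes, 5.17% higher and 6.34% lower. SIRT2 at 24 h was the one called member to reach a 2-fold change. The median of the 72 differences was 0.05 at 12 h and 0.06 at 24 h, against 0.01 over all genes at each time, and the median size of a difference was 0.19 at 12 h and 0.23 at 24 h, against 0.11 and 0.13 over all genes.

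In the same fit, genes with a mean of at least 5 log2 were called more often than all genes. Of the 66 members at that level, 11 were called at 12 h (16.7%), against 11% of all such genes, and 15 at 24 h (22.7%), against 16%. A separate fit to such genes alone, with its own adjustment, called 12 of 66 at 12 h (18.2%), against 12.6%, and 16 of 66 at 24 h (24.2%), against 17.7%. Without control 3, 24 members were called at 12 h (33.3%), 11 higher and 13 lower, against 20.1% of all genes. Without it at 24 h, 29 were called (40.3%), 13 higher and 16 lower, against 20.9%. All 11 calls at 12 h and 16 of the 17 at 24 h were among them.

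**Figure D1:**
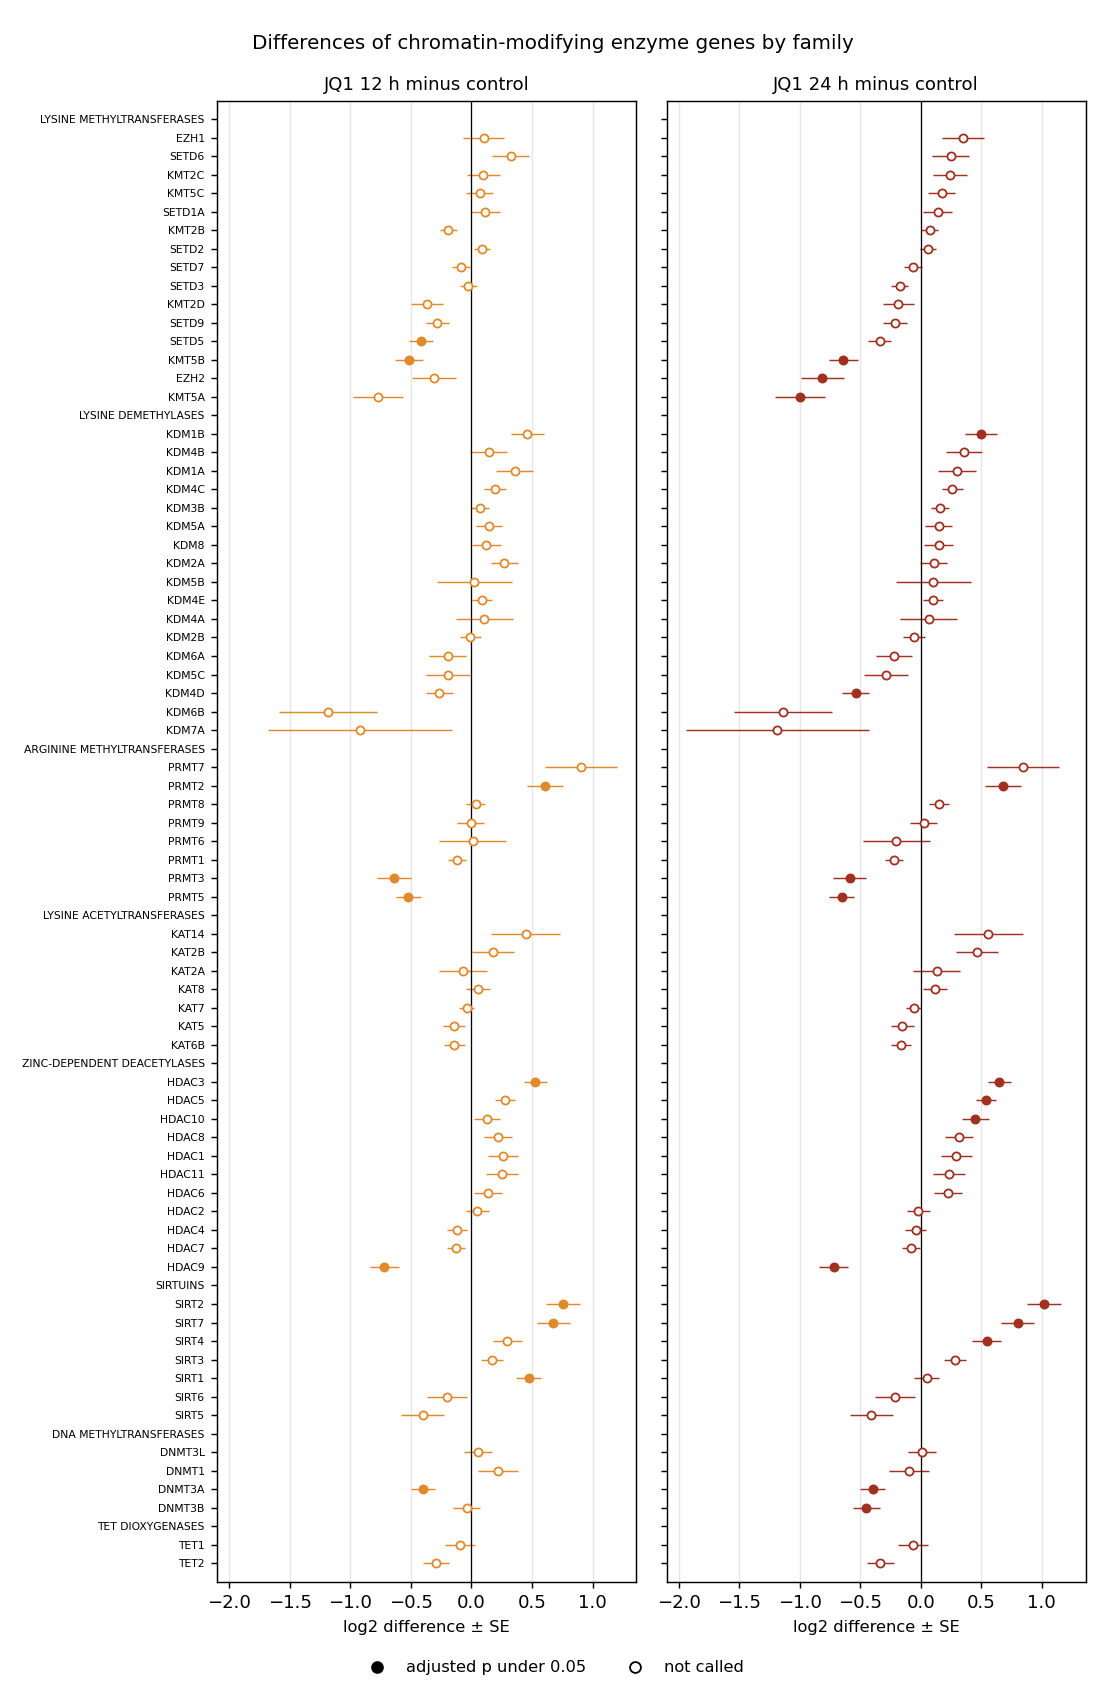
Difference from control in log2 for each of the 71 enzyme genes with values, by family, after 12 h and 24 h of JQ1. Filled points are genes called by limma; most points lie within 0.5 of 0, and SIRT2 at 24 h is the highest called gene at 1.02.

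At both times 9 genes were called. SIRT2, SIRT7, HDAC3 and PRMT2 were higher in JQ1-treated cells, and DNMT3A, PRMT3, PRMT5, KMT5B and HDAC9 were lower. The 2 comparisons share the same 3 controls, so a call at one time is not independent of a call at the other. SIRT1 and SETD5 were called at 12 h alone, and SIRT4, HDAC5, HDAC10, KDM1B, EZH2, DNMT3B, KMT5A and KDM4D at 24 h alone.

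**Figure D2:**
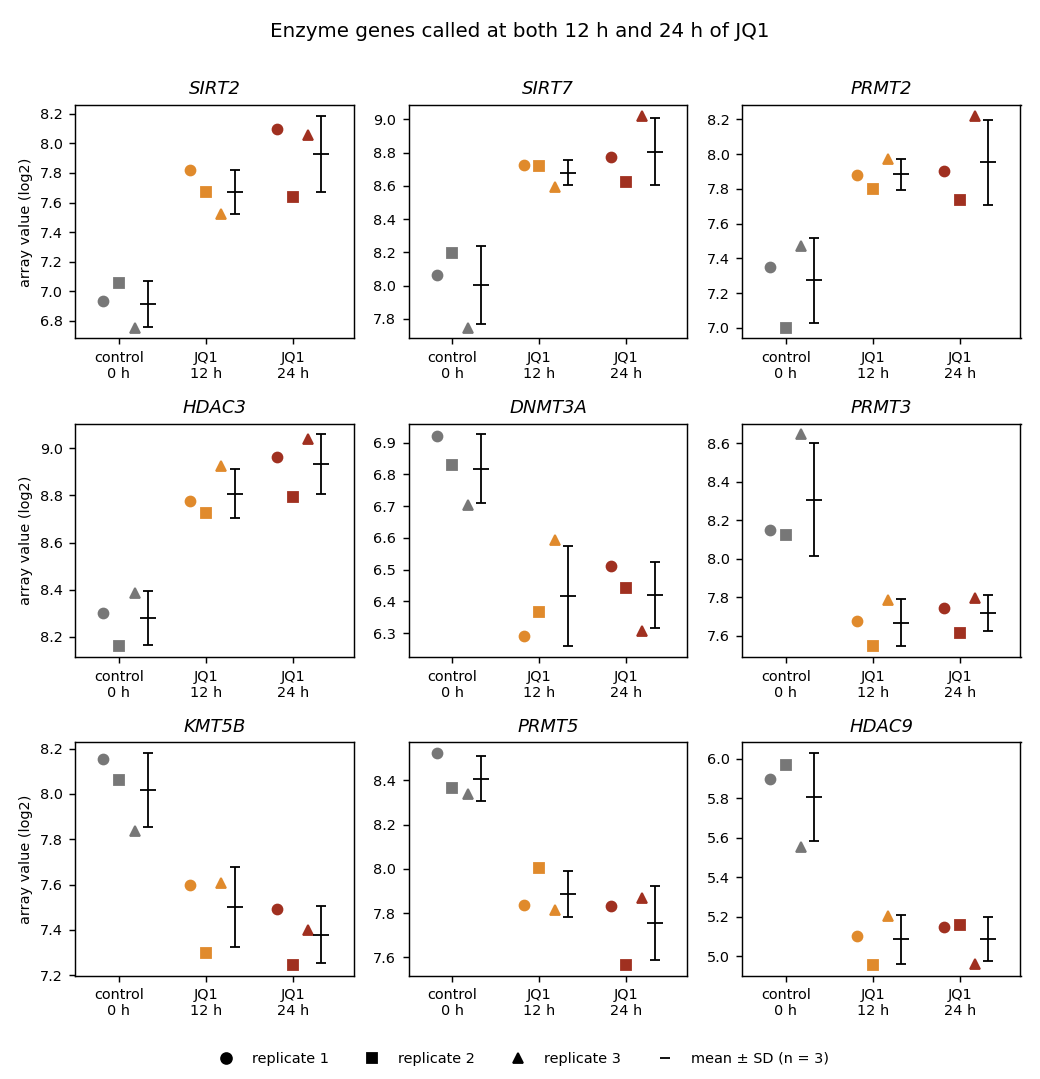
Log2 array values of the 9 enzyme genes called at both times, with one point per array and the mean ± SD of each group (n = 3) beside it. The JQ1 arrays at 12 h and 24 h do not overlap the controls in any panel. In HDAC9, for example, the highest JQ1 array stood at 5.20 and the lowest control at 5.55. These genes were picked by their calls, so the separation adds no support to the calls. Groups were also separate in genes not called, such as SETD2 at both times.

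Promoter stretches of 5 of the called enzymes are shown because they moved in opposite directions under the same treatment: SIRT2 and HDAC3 higher, and HDAC9, PRMT5 and EZH2 lower. Each is the 250 bases before the annotated start, 5′ to 3′ on the gene's own strand, from RefSeq on GRCh38.p14. The stretches are chr19:38899619-38899868 on the minus strand for SIRT2, chr5:141636850-141637099 on the minus strand for HDAC3, chr7:18495499-18495748 on the plus strand for HDAC9, chr14:22929377-22929626 on the minus strand for PRMT5 and chr7:148884292-148884541 on the minus strand for EZH2. Capitals mark matches, on either strand, to any of 5 motifs.
SIRT2: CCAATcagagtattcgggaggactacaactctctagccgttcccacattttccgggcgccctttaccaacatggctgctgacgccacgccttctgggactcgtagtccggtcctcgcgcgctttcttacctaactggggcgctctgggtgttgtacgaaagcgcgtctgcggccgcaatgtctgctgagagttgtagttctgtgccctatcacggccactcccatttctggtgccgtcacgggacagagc
HDAC3: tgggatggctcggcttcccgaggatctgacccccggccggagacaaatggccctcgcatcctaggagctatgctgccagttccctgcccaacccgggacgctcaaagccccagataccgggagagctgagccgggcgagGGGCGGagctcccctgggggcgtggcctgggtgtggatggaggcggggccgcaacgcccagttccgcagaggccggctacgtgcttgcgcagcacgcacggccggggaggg
HDAC9: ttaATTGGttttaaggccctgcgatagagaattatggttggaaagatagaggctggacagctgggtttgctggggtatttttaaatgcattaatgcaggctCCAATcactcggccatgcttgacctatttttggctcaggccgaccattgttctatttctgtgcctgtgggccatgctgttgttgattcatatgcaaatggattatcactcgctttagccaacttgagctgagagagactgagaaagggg
PRMT5: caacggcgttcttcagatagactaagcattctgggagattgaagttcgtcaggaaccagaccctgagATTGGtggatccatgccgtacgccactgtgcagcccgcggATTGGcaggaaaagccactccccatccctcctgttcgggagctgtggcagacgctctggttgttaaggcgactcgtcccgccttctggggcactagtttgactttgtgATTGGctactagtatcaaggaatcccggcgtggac
EZH2: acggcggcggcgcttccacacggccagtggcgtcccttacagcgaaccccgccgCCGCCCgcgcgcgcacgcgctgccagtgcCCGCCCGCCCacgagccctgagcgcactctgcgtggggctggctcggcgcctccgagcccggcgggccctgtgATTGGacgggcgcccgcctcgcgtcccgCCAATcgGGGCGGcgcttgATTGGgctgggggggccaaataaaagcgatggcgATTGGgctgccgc
The motifs were the E-box bound by MYC-family proteins (CACGTG), the GC box of SP factors (GGGCGG), the CCAAT box of NF-Y (CCAAT), an ETS site (CCGGAAG) and a TATA box (TATAAA). Letters and CpG were counted in a window of the 250 bases before the start. It was found for 66 of the 71 members with values and for 10749 of the array's genes. The CCAAT letters stood in 34.8% of the members' windows, against 34.3% over the array, and the GC box in 57.6%, against 57.8%. The E-box stood in 13.6% of members and 7.93% of array genes, and the ETS letters in 16.7% and 12.4%. TATAAA was in 0 of 66 members' windows, against 8.14% over the array. The members' windows held a median of 22.5 CpG, against 18. By direction, CCAAT stood in 7 of the 10 members called lower at either time, in 2 of the 7 with a window that were called higher, and in 14 of 49 not called. These sets were made from the values, so no test was run on them, and a match to the letters does not show that a factor binds there.

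Of the 7 sirtuins, 3 rose and 0 fell at each time with all arrays, and 3 rose and 2 fell without control 3. Each family or list count, here and below, is to be read against the share of all genes called. That share was 7.93% at 12 h and 11.5% at 24 h, or 20.1% and 20.9% without control 3. Those that rose with all arrays were SIRT2, SIRT7 and SIRT1 at 12 h and SIRT2, SIRT7 and SIRT4, the last of them dim, at 24 h. SIRT2, a mostly cytoplasmic deacetylase of tubulin and of histone H4 lysine 16, stood at 7.82, 7.67 and 7.53 after 12 h of JQ1, against 6.93, 7.06 and 6.75 in controls 1, 2 and 3. After 24 h it stood at 8.10, 7.64 and 8.06. Every JQ1 array lay above every control. The difference was 0.76 at 12 h (1.69-fold, SE 0.14, adjusted p = 0.013) and 1.02 at 24 h (2.02-fold, SE 0.14, adjusted p = 0.0025). The 12 h call was lost without JQ1 12 h replicate 1 or 2 (adjusted p up to 0.056), and the 24 h call was kept without any one array.

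SIRT7, a nucleolar enzyme that removes acetyl groups from histone H3 lysine 18, read 8.72, 8.72 and 8.60 after 12 h, against 8.06, 8.20 and 7.75 in the controls. At 24 h it read 8.77, 8.62 and 9.02, again above every control. It rose by 0.68 at 12 h (1.60-fold, SE 0.13, adjusted p = 0.017) and 0.80 at 24 h (1.74-fold, adjusted p = 0.0065). The 12 h call was lost without control 1 or JQ1 12 h replicate 1 or 2 (adjusted p up to 0.068). SIRT1, the nuclear deacetylase of p53 and histones, had 9.38, 9.51 and 9.73 after 12 h, against 9.10, 9.16 and 8.94 in the controls. It rose by 0.47 at 12 h (1.39-fold, SE 0.10, adjusted p = 0.027), and lost the call without control 1, control 2, or JQ1 12 h replicate 2 or 3 (adjusted p up to 0.076). At 24 h its 9.14, 9.18 and 9.03 overlapped the controls, with a difference of 0.05 (adjusted p = 0.84).

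SIRT4, a mitochondrial sirtuin, was dim. Its controls lay below the array medians, and the files hold no detection calls, so that it was above background is not shown and no fold is given. It read 4.65, 4.81 and 5.09 after 12 h, against 4.69, 4.46 and 4.51 in the controls. The 24 h arrays stood higher, at 4.98, 5.15 and 5.17, clear of the controls, a difference of 0.54 (SE 0.12, adjusted p = 0.021). Leaving out control 2, or the replicate 2 or 3 array of the 24 h group, ended the call (adjusted p up to 0.086). SIRT3, the main mitochondrial deacetylase, differed by 0.17 and 0.28 at the 2 times (adjusted p = 0.35 and 0.085). SIRT5, a desuccinylase, differed by -0.40 and -0.41 (adjusted p = 0.23 and 0.19), and SIRT6, a chromatin deacetylase that acts at telomeres, by -0.20 and -0.21 (adjusted p = 0.57 and 0.51). Both SIRT5 and SIRT6 were low in control 3 and were called lower at both times without it.

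Among the 11 zinc-dependent deacetylases, 1 rose and 1 fell at 12 h, and 3 rose and 1 fell at 24 h (4 and 1 without control 3). HDAC3, the catalytic subunit of the NCoR and SMRT corepressor complexes, stood at 8.77, 8.72 and 8.92 after 12 h, against 8.30, 8.16 and 8.38 in the controls. After 24 h it stood at 8.96, 8.79 and 9.04. All JQ1 arrays were higher than all controls. HDAC3 rose by 0.53 at 12 h (1.44-fold, SE 0.10, adjusted p = 0.013) and 0.65 at 24 h (1.57-fold, adjusted p = 0.0036). Without control 2 or JQ1 12 h replicate 3 the 12 h call was lost (adjusted p up to 0.052).

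HDAC9, a class IIa deacetylase that binds MEF2 factors, was the fall that stood at 12 h under every setting tried. It read 5.10, 4.95 and 5.20 after 12 h, against 5.90, 5.97 and 5.55 in the controls, and 5.14, 5.16 and 4.96 after 24 h. No JQ1 array reached the lowest control. The difference was -0.72 at each time, 1.65-fold lower at 12 h (SE 0.12), with adjusted p = 0.0086 at 12 h and 0.0067 at 24 h. Its JQ1 arrays lay near the array medians of 4.92 to 4.96. That they were above background is not shown, so the size of the fold is uncertain.

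HDAC5, another class IIa enzyme, read 7.01, 6.92 and 7.10 after 12 h, against 6.73, 6.83 and 6.63 in the controls, a difference of 0.28 (adjusted p = 0.079). Its 24 h arrays stood at 7.32, 7.19 and 7.30, above all the others, a rise of 0.54 (1.45-fold, SE 0.08, adjusted p = 0.0043). HDAC10, a class IIb enzyme that deacetylates polyamines, read 6.27, 6.07 and 6.31 after 12 h, against 6.0, 6.29 and 5.98 in the controls. These groups overlapped, whereas its 24 h arrays, at 6.63, 6.42 and 6.57, did not, and the rise there was 0.45 (1.37-fold, SE 0.11, adjusted p = 0.029). The HDAC10 call was lost without control 1 or JQ1 24 h replicate 1 or 3 (adjusted p up to 0.11). The class I enzymes HDAC1 and HDAC2, the paired deacetylases of the NuRD, Sin3 and CoREST complexes, were not called. HDAC1 differed by 0.26 and 0.29 at 12 h and 24 h (adjusted p = 0.28 and 0.18), and HDAC2 by 0.05 and -0.02. HDAC8, also of class I, differed by 0.22 and 0.32, and HDAC6, the tubulin deacetylase, by 0.14 and 0.22. HDAC4, HDAC7 and HDAC11 were not called either, with differences between -0.13 and 0.25. Without control 3 HDAC8 was called at 24 h, at 0.41 (adjusted p = 0.023).

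Of the 8 arginine methyltransferases, 1 rose and 2 fell at each time (2 and 2 without control 3). PRMT5, the main enzyme for symmetric dimethylation of arginine, stood at 7.83, 8.0 and 7.82 after 12 h, against 8.52, 8.36 and 8.34 in the controls. At 24 h it stood at 7.83, 7.56 and 7.87. All 6 JQ1 arrays lay below all controls, with differences of -0.52 at 12 h (1.44-fold lower, SE 0.10, adjusted p = 0.017) and -0.65 at 24 h (1.57-fold lower, adjusted p = 0.0048). The 12 h call was lost without control 1, control 2, or JQ1 12 h replicate 1 or 3 (adjusted p up to 0.069).

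PRMT3, a cytosolic enzyme that methylates ribosomal protein S2, read 7.68, 7.54 and 7.79 after 12 h, against 8.15, 8.12 and 8.65 in the controls, and 7.75, 7.62 and 7.80 after 24 h. The groups were separate at both times. It fell by 0.64 at 12 h (1.56-fold, SE 0.14, adjusted p = 0.025) and by 0.59 at 24 h (1.50-fold, adjusted p = 0.027). Each call was lost when any one array of its own JQ1 group was left out (adjusted p up to 0.097 at 12 h and 0.085 at 24 h). PRMT2, a coactivator of nuclear receptors, went the other way, with 7.88, 7.80 and 7.97 after 12 h, against 7.35, 7.0 and 7.47 in the controls. Its 24 h arrays read 7.90, 7.74 and 8.22. PRMT2 rose by 0.61 at 12 h (1.53-fold, SE 0.15, adjusted p = 0.039) and 0.68 at 24 h (1.60-fold, adjusted p = 0.019). The 12 h call was lost without control 1, control 2, any JQ1 12 h array or JQ1 24 h replicate 1 (adjusted p up to 0.13), and the 24 h call without control 2 or JQ1 24 h replicate 1 or 3 (adjusted p up to 0.071). PRMT1, which makes most asymmetric dimethylarginine in cells, differed by -0.12 and -0.22 (adjusted p at 24 h = 0.096). PRMT6, PRMT8 and PRMT9 lay between -0.20 and 0.15 at both times with all arrays. Without control 3 PRMT6 differed by 0.38 and 0.17 and was not called.

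Of the 15 lysine methyltransferases, 0 rose at either time, while 2 fell at 12 h and 3 at 24 h. Without control 3, 1 rose and 3 fell at 12 h, and 1 rose and 4 fell at 24 h. With all arrays the 2 at 12 h were KMT5B and SETD5, and the 3 at 24 h were KMT5B, KMT5A and EZH2. KMT5B, which adds further methyl groups to singly methylated histone H4 lysine 20, stood at 7.60, 7.30 and 7.61 after 12 h, against 8.15, 8.06 and 7.84 in the controls. After 24 h it stood at 7.49, 7.25 and 7.40. No JQ1 array overlapped a control, and KMT5B fell by 0.52 at 12 h (1.43-fold, SE 0.12, adjusted p = 0.031) and by 0.64 at 24 h (1.56-fold, adjusted p = 0.010). The 12 h call was lost without control 1, control 2, any JQ1 12 h array or JQ1 24 h replicate 3 (adjusted p up to 0.12).

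KMT5A adds the initial methyl group to the same lysine and is itself tied to the cell cycle. It read 7.79, 7.76 and 7.79 after 12 h, against 8.86, 8.82 and 7.97 in the controls, and 7.49, 7.69 and 7.49 after 24 h. Every JQ1 array lay below every control, and control 3 lay nearest to them. KMT5A fell by 1.00 at 24 h (1.99-fold, SE 0.20, adjusted p = 0.015), while the 12 h difference of -0.77 missed the threshold (adjusted p = 0.053). Without control 3 the differences were -1.06 and -1.28, called at both times. The 24 h call was lost without control 1, control 2, or JQ1 24 h replicate 1 or 3 (adjusted p up to 0.066). KMT5C, the paralogue of KMT5B, differed by 0.07 and 0.17.

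EZH2 is the catalytic subunit of Polycomb repressive complex 2 and methylates histone H3 lysine 27. It stood at 8.93, 9.14 and 8.96 after 12 h, against 9.06, 9.13 and 9.78 in the controls, and the groups overlapped (difference -0.31, adjusted p = 0.38). At 24 h it read 8.39, 8.71 and 8.44, below every other array, and fell by 0.81 (1.76-fold, SE 0.18, adjusted p = 0.020). The call was lost without JQ1 24 h replicate 1 or 3 (adjusted p up to 0.083). It was kept without control 3, at -0.58 (adjusted p = 0.0050). Its paralogue EZH1 differed by 0.10 and 0.35 (adjusted p at 24 h = 0.25), or by -0.10 and 0.15 without control 3, not called. SUZ12, a non-catalytic core subunit of the complex, differed by 0.17 and -0.11 (adjusted p = 0.68 and 0.79). Without control 3 SUZ12 was called higher at 12 h, at 0.41 (adjusted p = 0.018).

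The replication and mitosis genes, whose products rise in dividing cells, are set beside EZH2. Their median deviation was 0.08, 0.29 and 0.10 in the 12 h arrays and -0.39, -0.07 and -0.43 in the 24 h arrays, against -0.17, -0.22 and 0.82 in controls 1, 2 and 3. Of the 23 genes, 0 were called at 12 h, and at 24 h 0 rose and 3 fell, CDC6 (-0.76), CCNB1 (-0.69) and AURKA (-0.89). Without control 3, 10 rose and 0 fell at 12 h, and 3 rose and 3 fell at 24 h. Control 3 was highest and 24 h replicates 1 and 3 were lowest both for this list and for EZH2. The part of cell-cycle stage in the EZH2 result was not tested.

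**Figure D3:**
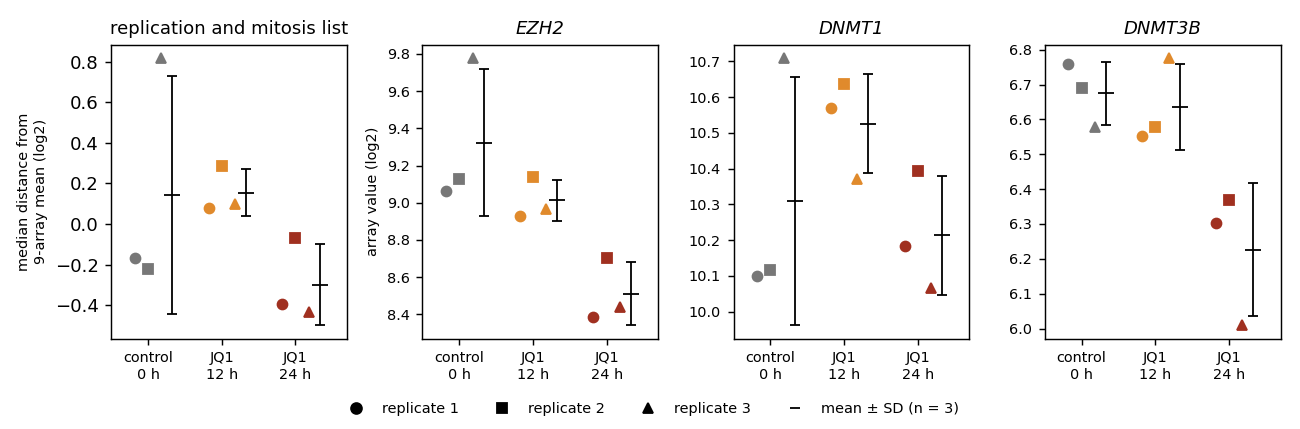
Median distance of 23 replication and mitosis genes from their 9-array means (left panel, log2) and the log2 array values of EZH2, DNMT1 and DNMT3B, with one point per array and the mean ± SD of each group (n = 3). Control 3 is the highest array for the list, at 0.82, and also for EZH2 (9.78) and DNMT1 (10.71), but not for DNMT3B (6.58).

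SETD5, a SET-domain protein whose enzymatic activity is disputed, read 8.06, 8.23 and 8.30 after 12 h, against 8.66, 8.73 and 8.45 in the controls, and 8.28, 8.31 and 8.24 after 24 h. The arrays of both JQ1 groups lay below the controls. It fell by 0.42 at 12 h (1.34-fold, SE 0.10, adjusted p = 0.030), and the 24 h difference was -0.34 (adjusted p = 0.052), or -0.42 and called without control 3 (adjusted p = 0.0085). The 12 h call was kept only without control 3 or without JQ1 24 h replicate 2 (adjusted p up to 0.11 without one of the others). The large KMT2 enzymes, which methylate histone H3 lysine 4 at promoters and enhancers, were not called. KMT2B differed by -0.19 and 0.07, KMT2C by 0.10 and 0.24, and KMT2D by -0.37 and -0.19. SETD2, the histone H3 lysine 36 trimethylase, differed by 0.09 and 0.06, and SETD1A by 0.11 and 0.14. SETD3, SETD7 and SETD9 lay between -0.28 and -0.03. SETD6, which methylates the NF-kappaB subunit RELA, differed by 0.32 and 0.25, and was called higher at both times without control 3, at 0.52 and 0.44.

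Of the 4 DNA methyltransferases, 1 fell at 12 h and 2 at 24 h, and 0 rose. Without control 3, 1 rose and 1 fell at 12 h, and 2 fell at 24 h. DNMT3A, which sets up new DNA methylation, stood at 6.29, 6.37 and 6.59 after 12 h, against 6.92, 6.83 and 6.70 in the controls. After 24 h it stood at 6.51, 6.44 and 6.31. All JQ1 arrays lay below all controls, and DNMT3A fell by 0.40 at each time (1.32-fold and SE 0.10 at 12 h, adjusted p = 0.045 at 12 h and 0.037 at 24 h). At 12 h the call was kept only without control 3 or JQ1 12 h replicate 3 (adjusted p up to 0.16 without one of the others). At 24 h it was lost without control 1, control 2, JQ1 12 h replicate 2 or any JQ1 24 h array (adjusted p up to 0.14).

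DNMT3B, the other de novo enzyme, read 6.55, 6.58 and 6.78 after 12 h, against 6.76, 6.69 and 6.58 in the controls, and 6.30, 6.37 and 6.01 after 24 h. Its 12 h arrays overlapped the controls (difference -0.04, adjusted p = 0.90), and its 24 h arrays lay below all the others. It fell by 0.45 at 24 h (1.36-fold, SE 0.11, adjusted p = 0.031), a call lost without control 1, control 2, the 12 h array 2, or the 24 h array 1 or 3 (adjusted p up to 0.11). DNMT1, the maintenance enzyme that copies methylation after replication, had 10.57, 10.64 and 10.37 after 12 h, against 10.10, 10.12 and 10.71 in the controls. With 10.18, 10.39 and 10.06 after 24 h, its groups overlapped at both times, and the differences were 0.22 and -0.10 (adjusted p = 0.54 and 0.81). Without control 3 DNMT1 was called higher at 12 h, at 0.42 (adjusted p = 0.030). DNMT3L, a cofactor without catalytic activity, differed by 0.06 and 0.01. Of the 2 TET genes measured, neither was called. TET2 differed by -0.29 and -0.33 (adjusted p = 0.15 and 0.085), and TET1, which was dim, by -0.10 and -0.06.

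The lysine demethylases were the largest family, with 18 measured. Of them, 0 were called at 12 h, against 7.93% of all genes, and 1 rose and 1 fell at 24 h, against 11.5% called of all genes, a share near the background. Without control 3, 2 rose and 4 fell at 12 h, and 1 rose and 5 fell at 24 h, against 20.1% and 20.9% of all genes. KDM1B, a flavin-dependent demethylase of histone H3 lysine 4, stood at 9.08, 9.34 and 9.31 after 12 h, against 8.97, 8.81 and 8.57 in the controls, and at 9.51, 9.13 and 9.22 after 24 h. Its JQ1 arrays lay above the controls at both times. The difference was 0.46 at 12 h (adjusted p = 0.072) and 0.50 at 24 h (1.41-fold, SE 0.13, adjusted p = 0.043). The 24 h call was kept without control 1 but lost without any one of the other 8 arrays (adjusted p up to 0.14). Without control 3 the 24 h difference was 0.39 (adjusted p = 0.059). KDM4D, a Jumonji demethylase of histone H3 lysine 9, was dim, at 4.70, 4.80 and 4.87 after 12 h, against 5.21, 4.98 and 4.98 in the controls. It stood at 4.31, 4.71 and 4.54 after 24 h and fell by 0.54 (SE 0.11, adjusted p = 0.016), with no fold given at such a level. The KDM4D call was lost without control 1 or JQ1 24 h replicate 1 or 3 (adjusted p up to 0.062).

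**Figure D4:**
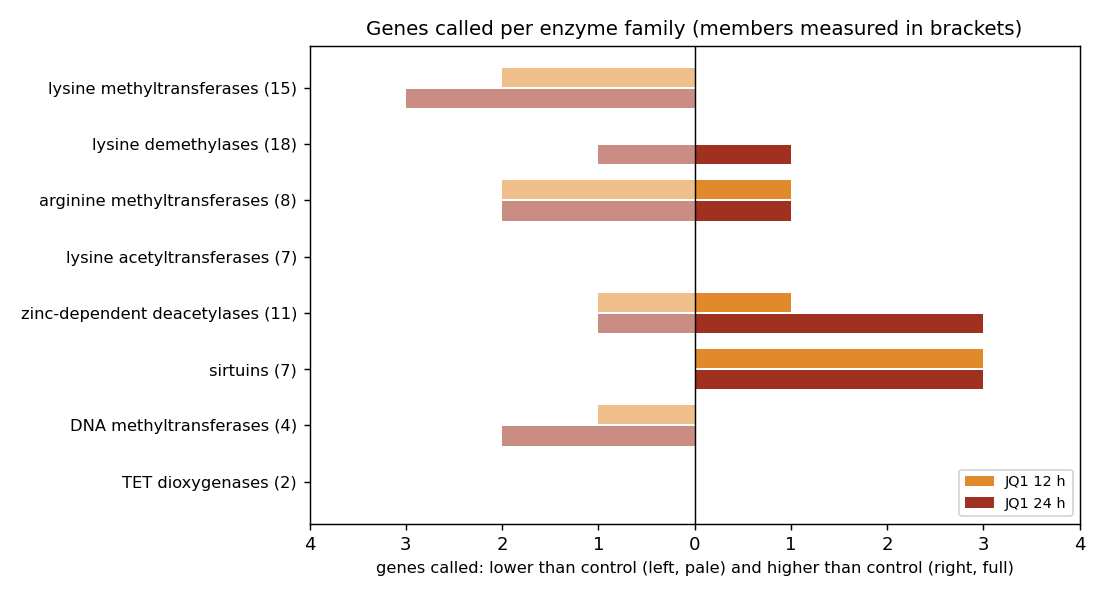
Number of enzyme genes called higher and lower in each family after 12 h and 24 h of JQ1, with all 9 arrays. The sirtuins show 3 higher and 0 lower at each time, and the acetyltransferases and TET genes show none. Without control 3 the sirtuins had 3 higher and 2 lower. Of all genes, 7.93% were called at 12 h and 11.5% at 24 h, or 20.1% and 20.9% without control 3.

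Several demethylases had differences that turned on control 3. They are set apart here by the values of that array, and without it controls 1 and 2 alone remain. The p-values without it therefore add no support. KDM6B removes methyl groups from histone H3 lysine 27. It read 6.91, 7.15 and 7.14 after 12 h and 7.36, 6.88 and 7.11 after 24 h, against 8.91, 8.76 and 7.09 in controls 1, 2 and 3. Control 3 lay among the JQ1 arrays and controls 1 and 2 far above them. With all arrays the differences were -1.19 and -1.14 (adjusted p = 0.12 and 0.11), and without control 3 they were -1.77 and -1.72 (adjusted p = 4.2e-05 and 4.8e-05). KDM7A, a demethylase of histone H3 lysines 9 and 27, read 6.14, 6.11 and 6.50 after 12 h and 6.24, 5.79 and 5.93 after 24 h, against 8.31, 8.29 and 4.92 in the controls. Here control 3 lay below every JQ1 array. The differences were -0.92 and -1.19 with it (adjusted p = 0.58 and 0.40) and -2.05 and -2.31 without it (adjusted p = 2.9e-05 and 1.3e-05).

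KDM5B, a demethylase of histone H3 lysine 4 at promoters, read 9.14, 8.86 and 9.19 after 12 h and 9.24, 9.06 and 9.13 after 24 h, against 9.46, 9.51 and 8.14 in the controls. Its difference at 12 h was 0.02 with control 3 and -0.42 without it (adjusted p = 0.023). KDM1A (LSD1), the flavin-dependent demethylase of the CoREST complex, differed by 0.36 and 0.30 (adjusted p = 0.22 and 0.28), and by 0.57 and 0.51 without control 3, called at both times. KDM6A, the X-linked relative of KDM6B, differed by -0.20 and -0.22 and was called lower at both times without control 3. KDM5A, KDM5C and KDM4B were not called with all arrays, with differences of 0.14, -0.20 and 0.14 at 12 h and 0.15, -0.29 and 0.35 at 24 h. KDM5C was called lower at 24 h without control 3, at -0.50 (adjusted p = 0.022). Its 24 h arrays, at 5.15, 4.73 and 5.15, lay near the array medians, and that they were above background is not shown. With all arrays KDM2A, KDM2B, KDM3B, KDM4A, KDM4C, KDM4E and KDM8 lay between -0.06 and 0.27 at both times. Without control 3 KDM2A was called higher at 12 h, at 0.37 (adjusted p = 0.031), and KDM4A differed by -0.21 and -0.25, not called.

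Of the 7 lysine acetyltransferases, none was called at either time with all arrays, and without control 3, 1 rose at 12 h and 2 at 24 h. KAT14, a subunit of the ATAC complex, read 7.17, 7.49 and 7.40 after 12 h and 7.62, 7.34 and 7.43 after 24 h, against 6.49, 6.52 and 7.71 in the controls. Control 3 lay above all JQ1 arrays and controls 1 and 2 below them. KAT14 differed by 0.45 and 0.56, or by 0.85 and 0.96 without control 3, called at both times. KAT2B (PCAF) differed by 0.18 and 0.46 (adjusted p at 24 h = 0.13), or by -0.05 and 0.24 without control 3, not called. KAT2A (GCN5), the acetyltransferase of SAGA and ATAC, differed by -0.07 and 0.13, KAT5 (TIP60) by -0.14 and -0.15, and KAT7 (HBO1) by -0.04 and -0.06. KAT2A was called higher at 24 h without control 3, at 0.41 (adjusted p = 0.0042). KAT6B and KAT8 lay between -0.16 and 0.12. Among the arginine methyltransferases, PRMT7 also had control 3 apart. It read 8.81, 8.71 and 8.63 after 12 h and 8.82, 8.51 and 8.63 after 24 h, against 7.47, 7.30 and 8.66 in the controls. Its differences were 0.91 and 0.85 (adjusted p = 0.10 and 0.11), and 1.33 and 1.27 without control 3, called at both times.

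**Figure D5:**
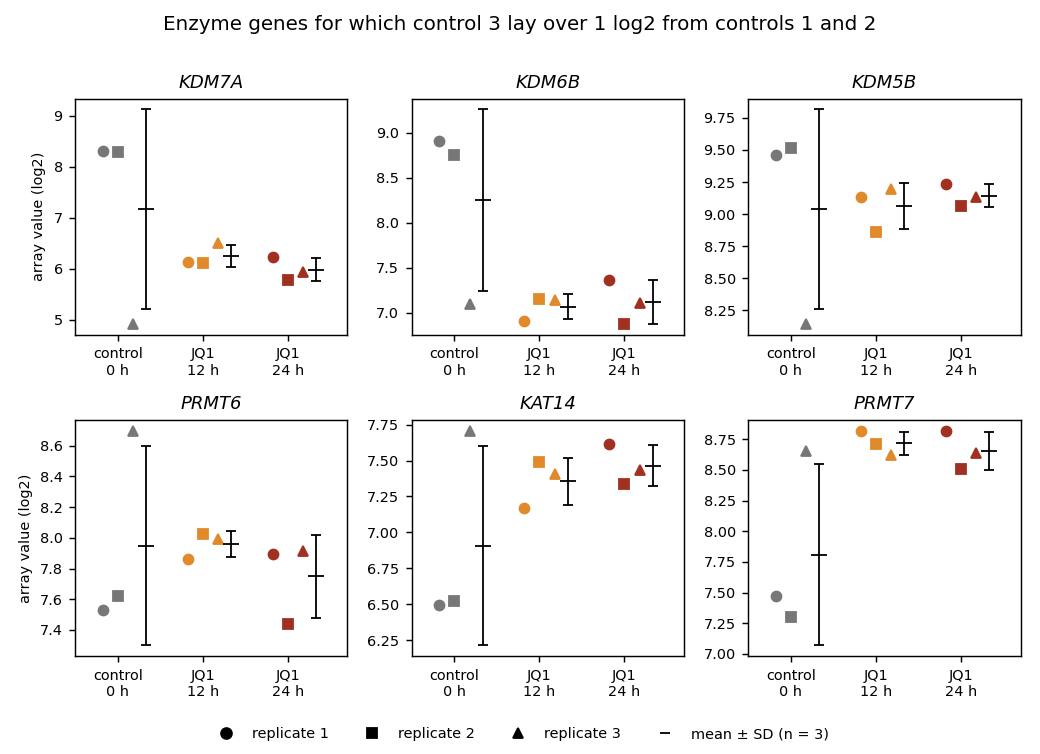
Log2 array values of the 6 enzyme genes for which control 3 lay more than 1 log2 from the mean of controls 1 and 2, one point per array, with the mean ± SD of each group (n = 3). The departures of control 3 were -3.37 in KDM7A, -1.74 in KDM6B, -1.34 in KDM5B, 1.12 in PRMT6, 1.20 in KAT14 and 1.27 in PRMT7.

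The direct comparison of 24 h with 12 h called 0 of the 72 with limma, against 0.00672% of all genes, which is 1 gene. Its differences do not use the controls, but its p-values do, because the spread was estimated on all 9 arrays. Of the 72, 7 had an unadjusted p below 0.05, SIRT1, KMT2B, DNMT3B, HDAC5, HDAC10, EZH2 and KDM4D, and the lowest adjusted p was 0.45. Without control 3, 12 had an unadjusted p below 0.05, the lowest adjusted p was 0.11, and 0 were called. SIRT1 stood 0.42 lower at 24 h than at 12 h (adjusted p = 0.45), DNMT3B differed by -0.41 (adjusted p = 0.46), EZH2 by -0.50 (adjusted p = 0.63) and HDAC5 by 0.26 (adjusted p = 0.54). A call at one time and not at the other was therefore not shown to be a difference between the times for any member.

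Genes whose products work beside these enzymes were counted in 8 lists with 108 measured genes. At 12 h, 5 rose and 15 fell (18.5%), against 3.54% of all genes higher and 4.39% lower. At 24 h, 7 rose and 20 fell (25.0%), against 5.17% higher and 6.34% lower. Most of the 108 had a mean of at least 5 log2. Of all genes at that level, 11% were called at 12 h and 16% at 24 h in the same fit. The counts depended on control 3. Without it, 18 rose and 25 fell at 12 h (39.8%, against 20.1% of all genes), and 13 rose and 26 fell at 24 h (36.1%, against 20.9%).

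Of 30 acetyltransferases and their subunits outside the symbol families, 1 rose and 5 fell at 12 h, and 1 rose and 8 fell at 24 h. Without control 3 these counts were 3 and 11 at 12 h and 1 and 10 at 24 h. CREBBP, the acetyltransferase CBP, fell at both times (-0.72 and -0.78). SUPT3H, a SAGA subunit, also fell at both (-0.80 and -0.42), and JADE1, a scaffold of the KAT7 complex, fell at 24 h (-1.05, against -0.54 and no call at 12 h). Of 17 methyltransferases outside the families, 0 rose and 3 fell at 12 h, and 1 rose and 4 fell at 24 h (1 and 3, and 2 and 4, without control 3). NSD1, a histone H3 lysine 36 methyltransferase, fell at 12 h and 24 h (-0.82 and -0.54), as did CARM1, an arginine methyltransferase also known as PRMT4 (-0.53 and -0.55). NSD2, a relative of NSD1, fell at 24 h (-0.62).

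Of 8 demethylases and related Jumonji proteins outside the KDM symbols, 0 rose and 3 fell at 12 h, and 0 rose and 2 fell at 24 h (1 and 4 at each time without control 3). PHF2 (-0.99 and -0.80) and HSPBAP1 (-0.80 and -0.88) fell at both times. RIOX2, a ribosomal oxygenase, fell at 12 h (-0.36, adjusted p = 0.048), a call lost without control 3 (-0.31, adjusted p = 0.056). Of 8 partners of DNA methylation, 0 rose and 1 fell at 12 h, and 1 rose and 3 fell at 24 h (2 and 1, and 1 and 2, without control 3). ZBTB38, a zinc-finger protein that binds methylated DNA, fell at both times (-0.84 and -0.91). At 24 h TDG, the glycosylase that excises oxidised methylcytosine, fell (-0.54), and DMAP1, a protein that binds DNMT1, rose (0.43). UHRF1, which brings DNMT1 to replicating DNA, was not called (-0.25 and -0.54, adjusted p = 0.72 and 0.30).

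Of 19 corepressor genes, 3 rose and 2 fell at 12 h, and 4 rose and 2 fell at 24 h (3 and 3, and 4 and 3, without control 3). TBL1XR1, a subunit of the HDAC3 corepressor complex, fell (-1.23 and -1.31), as did CHD3, a remodeller of the NuRD complex (-0.51 and -0.64). HMG20B, a subunit of the KDM1A complex, rose by 0.71 and 0.87. Of the 8 PRC2 genes, 0 rose and 1 fell at each time, PHF19 (-0.50 and -0.71). Without control 3, 3 rose and 1 fell at 12 h, and 2 rose and 1 fell at 24 h. Of the 14 COMPASS subunits, which work with KMT2 and SETD1 enzymes, 1 rose at 12 h, DPY30 (0.31), and 0 were called at 24 h. Without control 3, 5 rose and 1 fell at 12 h, and 2 rose and 1 fell at 24 h. Of 4 DOT1L and elongation partners, 0 were called at either time with all arrays by limma, and 1 fell at each time without control 3.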

How the data were processed

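Total RNA was hybridised to Affymetrix Human Gene 2.0 ST arrays, per the labels' protocols. The authors' deposited table holds 1 value per probe set and array, on a log2 scale as read from the values (2.01 to 13.88). The submitters' processing notes name the Transcriptome Analysis Console; its version, background correction and normalization are not given in the sources used here. Of 53617 probe sets, 16098 had 1 gene symbol, giving 14884 genes, each read from its brightest probe set. Groups came from the sample titles. limma 3.58.1 in R 4.3.3 was fitted to all 9 arrays and all genes, after a test on simulated data, with Benjamini-Hochberg adjustment. With 3 arrays per group, their number limits the precision. Named members were those called in a comparison without overlap between its groups, plus a list of textbook enzymes; 5 of that list, DOT1L, KMT2A, SETDB1, SETDB2 and TET3, are not analysed here. Of each partner list, up to 3 called genes with the largest difference at either time were named; SUZ12, UHRF1, CDC6, CCNB1 and AURKA were picked after their values were seen. KDM6B, KDM7A and other members named for control 3 fall partly outside the rule. Members and lists were chosen with earlier results of these data known. Alternatives changed the arrays, genes, weights, filter, scaling, probe-set rule and threshold.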

Additional observations from a re-analysis of the deposited data

How the results depend on the processing

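The counts of called enzyme genes moved with single arrays and with array weights. With 1 array left out, the count lay between 3 and 24 at 12 h (11 with all arrays) and between 7 and 29 at 24 h (17 with all). The highest of each came without control 3, at 24 and 29. The count at 12 h was also moved over 1.5 times by leaving out control 1 or 2 (4 each) or JQ1 12 h replicate 1, 2 or 3 (3, 3 and 4), and that at 24 h by control 2 (11) or JQ1 24 h replicate 1 or 3 (8 and 7). Fitting each comparison on its own 2 groups gave 5 at 12 h and 8 at 24 h. Testing every probe set gave 5 at 12 h. Array weights, which gave control 3 a weight of 0.213, gave 26 at 12 h and 33 at 24 h. With the replicate block the counts were 8 and 15; same-numbered arrays did not deviate together (correlations from -0.316 to 0.224), so the numbers were not taken as pairs. Of the calls, 1 of 11 at 12 h (HDAC9) and 7 of 17 at 24 h (HDAC3, HDAC5, HDAC9, KMT5B, PRMT5, SIRT2 and SIRT7) were kept under every setting run. The difference of KDM5B at 12 h, 0.02 with all arrays, ran from -0.42 (without control 3, where it was called) to 0.26 (without control 2) when 1 array was left out; the cause was not tested. The other settings, an intensity trend, the dim-gene filter, the mean of probe sets, quantile scaling and an adjusted threshold of 0.10, left both counts within 1.5 times. The count of 24 h against 12 h was 0 under every setting run. KDM4D, SIRT4, TET1, the JQ1 arrays of HDAC9 and KDM5C, and control 3 of KDM7A lay near the array medians. Signal above background was not shown there, so the size of a change is uncertain.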
